A study of Homo sapiens with 2 samples.

Results

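The clustered protocadherins are cell-surface adhesion proteins encoded by 3 neighbouring gene clusters, alpha, beta and gamma, on human chromosome 5. All protein-coding genes of that chromosome whose names begin with PCDHA, PCDHB or PCDHG were taken. GENCODE 29 names 53 of them. The Ensembl IDs of 51 had a row in the count table, out of 57820 gene rows and 19263 protein-coding rows. The members were 15 alpha, 15 beta and 21 gamma genes. PCDHB16 and PCDHGB5 were not analysed here, because their GENCODE 29 IDs had no row. Whether the count table holds them under other IDs was not checked. In hg19, the members lay between positions 140165876 and 140892546, a span of 726671 bases, all on the plus strand.

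Each variable exon of the alpha and gamma clusters has its own promoter and codes for the extracellular, transmembrane and first intracellular part of a protein, and is spliced to constant exons that all genes of the cluster share. Beta genes have no constant exons. In neurons, where these genes are best known, a cell uses a few alternate isoforms at a time, CTCF and cohesin loop distant enhancers to the chosen promoters, and proteins of the same isoform recognise each other between cells. The C-type genes, PCDHAC1, PCDHAC2, PCDHGC3, PCDHGC4 and PCDHGC5, are used more uniformly. In breast tumours the region is known for DNA methylation of these promoters.

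The cells were T47D, an oestrogen receptor-positive human breast cancer line of luminal epithelial type, carrying the Y537S substitution in ESR1, the oestrogen receptor gene, which makes the receptor active without hormone. The medium was depleted of hormones, and a control siRNA was introduced at 25 nM. Both libraries shared all of these features, so there was 1 group of 2 replicates and no comparison between conditions. The names of the 2 count columns give the line, the mutated residue and the replicate but not the siRNA, so the siRNA is known from the sample labels alone. The labels do not say how the mutation was made, whether the line is 1 clone, or whether the replicates were separate cultures. The libraries were made from total RNA depleted of ribosomal RNA. They held 41370662 and 37198274 reads on genes in replicates 1 and 2. All 7 luminal epithelial markers were detected, and KRT19, KRT8 and KRT18, keratins of simple epithelia, stood highest among them. Of the 8 neuron markers 2 were detected, MAP2 and TUBB3, and of the 5 fibroblast markers 1, COL1A1. STMN2, ELAVL4 and GAP43 of the neuron markers, and PDGFRB and DCN of the fibroblast markers, had no reads in either library.

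The promoters of most members carry a short sequence element around the letters CGCT, which is shown first because it is the feature that the members share and CTCF is known to bind such elements. RefSeq (GRCh38.p14) gave a window of 250 bases before to 50 bases after the start for 45 of the 51 members. No window was matched for PCDHA3, PCDHA13, PCDHB6, PCDHB11, PCDHGA12 or PCDHGC5. The stretches that follow are on the plus strand, which is the strand of the genes, with CGCT in capitals. The alpha examples are 3 highly read genes, PCDHA1, PCDHA4 and PCDHA5, and 2 genes with low levels, PCDHA7 and PCDHA10.
PCDHA1: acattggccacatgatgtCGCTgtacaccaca
PCDHA4: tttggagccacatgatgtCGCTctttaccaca
PCDHA5: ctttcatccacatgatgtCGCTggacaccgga
PCDHA7: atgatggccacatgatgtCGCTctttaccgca
PCDHA10: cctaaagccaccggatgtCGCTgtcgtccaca

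In the beta cluster the examples are the 4 highest genes, PCDHB8, PCDHB5, PCDHB2 and PCDHB13, and the 2 lowest genes with reads and a window, PCDHB4 and PCDHB7.
PCDHB8: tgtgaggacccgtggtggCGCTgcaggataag
PCDHB5: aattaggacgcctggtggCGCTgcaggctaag
PCDHB2: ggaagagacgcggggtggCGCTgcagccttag
PCDHB13: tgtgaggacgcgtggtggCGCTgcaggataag
PCDHB4: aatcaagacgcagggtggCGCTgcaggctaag
PCDHB7: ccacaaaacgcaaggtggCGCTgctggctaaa

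In the gamma cluster the examples are the 3 highest genes, PCDHGB1, PCDHGA10 and PCDHGC3, and the 3 lowest genes with a window, PCDHGC4, PCDHGA2 and PCDHGA3.
PCDHGB1: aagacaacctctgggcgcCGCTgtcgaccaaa
PCDHGA10: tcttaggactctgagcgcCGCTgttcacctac
PCDHGC3: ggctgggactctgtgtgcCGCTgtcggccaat
PCDHGC4: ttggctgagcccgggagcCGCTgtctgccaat
PCDHGA2: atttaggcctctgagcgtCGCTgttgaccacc
PCDHGA3: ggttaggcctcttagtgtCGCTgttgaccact

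The letters differed between the clusters. The form TGTCGCT stood on the gene strand in 10 of 13 alpha windows, 1 of 13 beta windows and 3 of 19 gamma windows. GTGGCGCT stood in 12 of 13 beta windows and in 0 of 13 alpha and 0 of 19 gamma windows. The gamma form GNCGCTGT, where N is any base, stood in 16 of 19 gamma windows, 5 of 13 alpha windows and 1 of 13 beta windows. The alpha and gamma forms overlap in the letters TGTCGCTGT, and 5 alpha and 3 gamma windows held both. Among 14978 protein-coding genes with such a window, the alpha form was found in 1.58% on the gene strand and 2.81% on either strand. The beta form was found in 1.06% and 1.87%, and the gamma form in 4.08% and 6.90%. The 4 letters CGCT alone stood in 44 of 45 member windows but also in 71.5% of all windows on the gene strand and 85.2% on either strand. These forms were spelled after reading the members' own promoters, so their counts describe the members and test nothing.

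Any of the 3 forms was present in 38 of 45 members, against 6.30% of protein-coding genes, and the median position of CGCT was 55 bases before the start. In PCDHB8 it stood 3 bases after the RefSeq start. Aligned on CGCT, the 32-base stretches of 2 genes of the same cluster had a median of 68.8% equal letters in alpha, 71.9% in beta and 68.8% in gamma. Stretches of different clusters had at most 68.8% equal letters, the highest value among the 120 pairs of an alpha and a beta gene. The forms themselves fix part of these letters. The most alike beta stretches, of PCDHB8 and PCDHB13, differed at 1 position, C10G, counted from the 5′ end with the PCDHB8 base first. The 7 windows without a form were those of PCDHA9, PCDHAC1, PCDHAC2, PCDHB1, PCDHGA11, PCDHGB3 and PCDHGB7. PCDHB1 was the only member without any read, and its window held gtggtgct, which differs from the beta form by C5T, counted from the form's 5′ end. Stretches 1 substitution from the form of their own cluster also stood in PCDHA9, PCDHAC1, PCDHGA11, PCDHGB3 and PCDHGB7, all of which had reads. The closest stretches of PCDHAC2 differed by 2. The promoters of PCDHB8, the highest member, and of PCDHB1 are given to show the element and the near match in their setting, from 250 bases before to 30 bases after the RefSeq start, in GRCh38.p14 on the plus strand, at chr5:141177540-141177819 and chr5:141051124-141051403. Every CGCT is in capitals.
PCDHB8: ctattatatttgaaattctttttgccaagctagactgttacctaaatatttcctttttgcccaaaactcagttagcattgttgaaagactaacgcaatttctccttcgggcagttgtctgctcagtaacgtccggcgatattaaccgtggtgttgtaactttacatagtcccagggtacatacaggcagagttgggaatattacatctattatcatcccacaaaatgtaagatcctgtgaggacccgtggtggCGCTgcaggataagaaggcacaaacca
PCDHB1: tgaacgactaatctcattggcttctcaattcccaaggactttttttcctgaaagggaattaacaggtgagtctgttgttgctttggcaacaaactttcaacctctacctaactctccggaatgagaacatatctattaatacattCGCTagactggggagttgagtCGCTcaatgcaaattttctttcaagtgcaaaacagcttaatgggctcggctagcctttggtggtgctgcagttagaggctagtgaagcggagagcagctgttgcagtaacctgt

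How much of each gene could be counted differed between the clusters. In hg19, 14 of the 15 alpha rows ended at the same base, 140391929, and 19 of the 21 gamma rows at 140892546, since the rows include the constant exons. A read in an exon that several rows share was not counted by the counter's default. Between 45.2% and 70.0% of the exon bases of an alpha gene, and between 52.4% and 62.7% of those of a gamma gene, belonged to no other row. In the beta cluster 14 of 15 genes were free of shared exon bases and PCDHB3 had 94.5% unshared. Levels are therefore given as reads per kilobase of unshared exon per 1000000 reads on genes, called the level from here on. In the alpha and gamma clusters they leave out the constant exons and describe exon bases of a single gene, which include its variable exon. PCDHA9 had 6697 unshared bases, against at most 3181, in PCDHA2, among the other alpha genes. Its level is therefore averaged over a longer stretch than theirs.

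**Figure D1:**
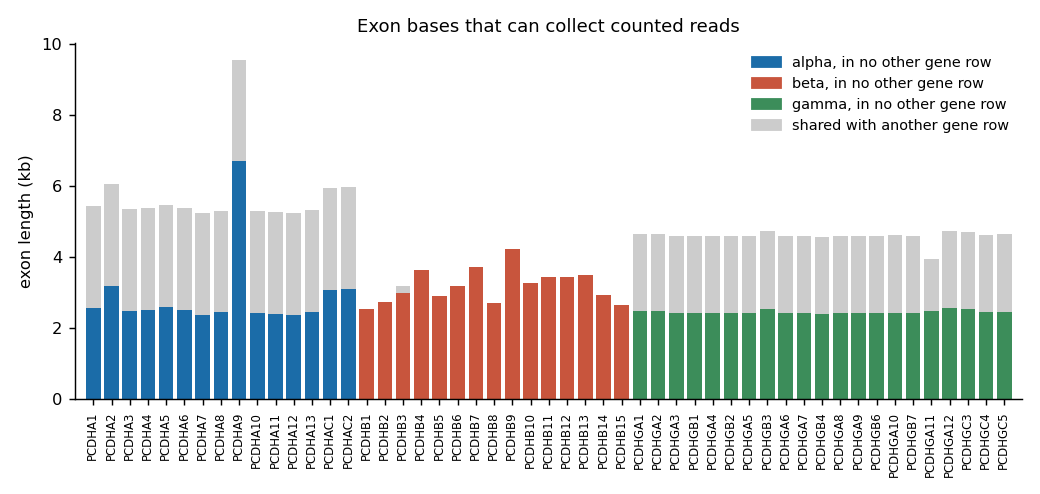
Exon length in kb of each of the 51 members in gene order, split into bases that no other gene row covers (coloured by cluster) and bases shared with another row (grey). Nearly the whole length of beta genes is unshared, and alpha and gamma genes carry a shared part of at least 1470 bases, the length in PCDHGA11.

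The genes are also alike in sequence, which limits what could be counted even in unshared exons. Of the 50-base words of a member's unshared exons in GENCODE 29, a median of 4.88% in alpha, 12.8% in beta and 5.36% in gamma stood also in a transcript of another gene. The share was above 10% in 21 of 51 members, 12 of them beta. It was highest in PCDHB8, at 45.1%, and PCDHB13 alone held 30.9% of all PCDHB8 words. All 5 C-type genes had a share of 0. A read that fits several places was not counted by default, so the levels of the beta genes in particular are uncertain, and the part this plays in the levels was not tested.

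The members together took 11512 reads in replicate 1 and 9788 in replicate 2, which was 0.0278% (exact binomial 95% interval 0.0273% to 0.0283%) and 0.0263% (0.0258% to 0.0268%) of the reads on genes. Intervals here cover the counting error within 1 library only and leave out differences between libraries. The reads also carry no molecular identifiers. At least 1 read per 1000000 reads on genes (CPM) in both libraries was found for 36 of 51 members, or 70.6%, against 60.9% of all protein-coding genes and 24.5% of all rows. By cluster, 17 of 21 gamma genes, 11 of 15 beta genes and 8 of 15 alpha genes passed. All 6 gamma B genes and 10 of 12 gamma A genes did, but of the 5 C-type genes PCDHGC3 alone. On either side of the threshold stood PCDHB6, with 3.24 and 1.24 CPM, and PCDHGC4, with 1.04 and 0.968 CPM. The threshold is not scaled by length, and countable length differed between members. PCDHA9 passed at a level of 0.260 over 6697 unshared bases, and PCDHA12 failed at 0.447 over 2367.

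The median level over the members was 1.02, against 1.93 over all protein-coding genes. In each library alone it was 1.16 and 1.06 over the members, against 1.92 and 1.93 over protein-coding genes. The value over both libraries lies below those of each because it is the median of the members' means. Gamma genes had the highest median, 1.72 (1.71 and 1.73 in replicates 1 and 2), followed by beta with 0.914 (0.780 and 0.932) and alpha with 0.447 (0.531 and 0.429). Over the deposited exon length, which counts the shared exons too, the gamma median was 0.905, the beta median 0.914 and the alpha median 0.202, so gamma did not lead on that scale. Levels of single members ran from 0 to 11.8. The 10 highest genes held 57.5% of the members' reads in replicate 1 and 55.7% in replicate 2.

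**Figure D2:**
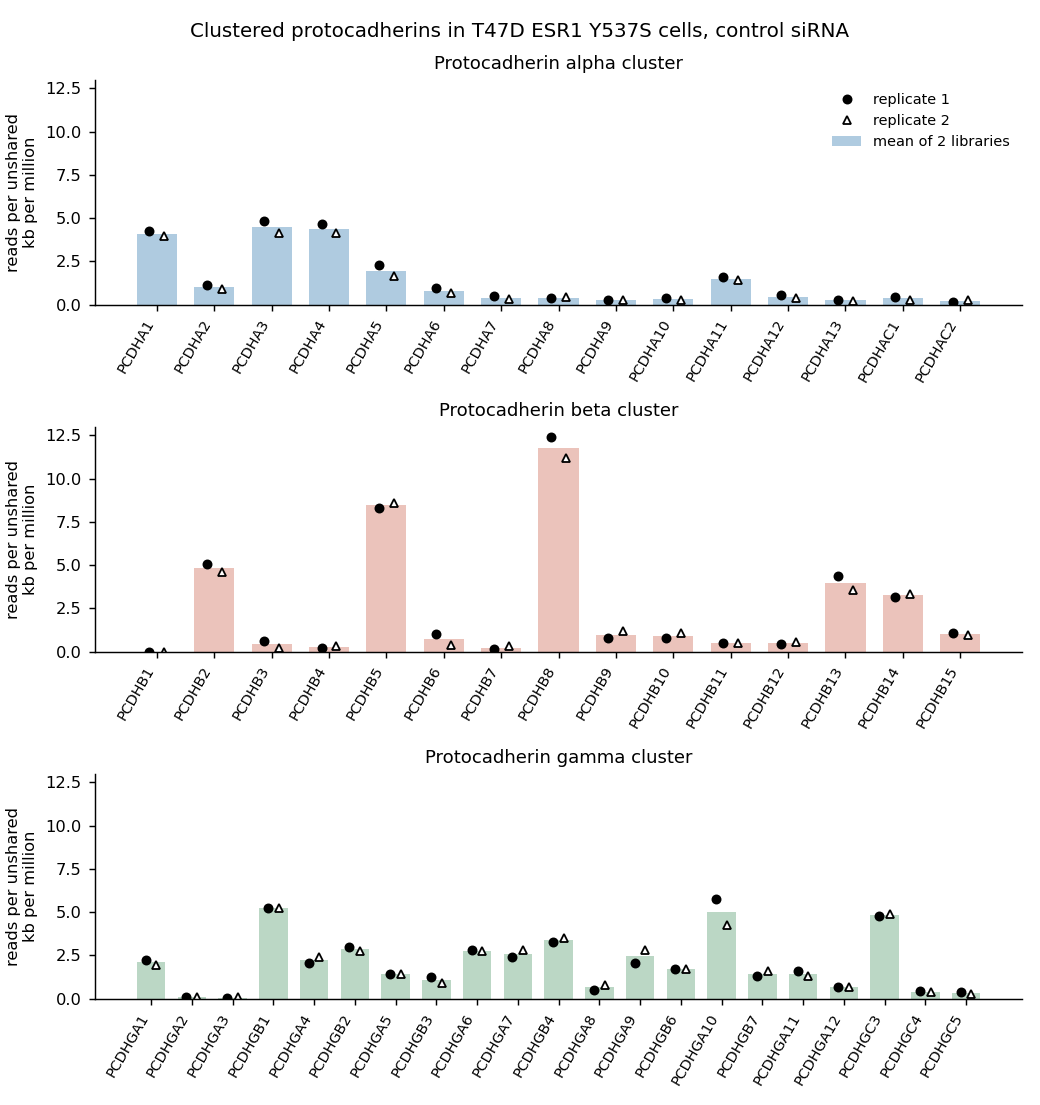
Level of each member in gene order, in reads per unshared kb per 1000000 reads on genes, by cluster. Bars are the mean of both libraries, filled circles replicate 1 and open triangles replicate 2; PCDHB8 and PCDHB5 stand above all other members, at 11.8 and 8.46.

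Within the beta cluster, PCDHB8 was the highest member of all. It had 1391 reads in replicate 1 and 1133 in replicate 2, a level of 12.4 and 11.2 (11.8 ± 0.825, SD, n = 2). PCDHB5 was next with 999 and 929 reads, at 8.32 and 8.60 (8.46 ± 0.201). Neither library of PCDHB5 reached either library of PCDHB8. PCDHB2 followed with 574 and 470 reads and a level of 4.84 ± 0.320, then PCDHB13 with 629 and 460 reads and 3.96 ± 0.576. Next came PCDHB14, at 3.26 ± 0.122, and then a gap. The other 9 beta genes with reads stood between 0.230 and 0.995. PCDHB15, the last gene of the cluster, had 116 and 92 reads, PCDHB11 had 72 and 66, PCDHB12 had 60 and 73 and PCDHB4 had 28 and 41. PCDHB1 had 0 reads in both libraries, where 3 reads, the one-sided limit that a count of 0 allows, would be 0.0725 CPM in replicate 1 and 0.0806 CPM in replicate 2. The exact two-sided 95% interval of each count reached 3.69 reads.

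The highest gamma genes stood closer together than the highest beta genes, but the cluster as a whole ran from 0.0588 to 5.24. PCDHGB1 led with 523 and 468 reads and a level of 5.25 and 5.22 (5.24 ± 0.0178). PCDHGA10 had 578 and 387 reads, at 5.74 and 4.27 (5.00 ± 1.04), and its libraries differed more than those of the other members of high level. PCDHGC3 had 500 and 460 reads, at 4.77 and 4.88 (4.82 ± 0.0782). The range of PCDHGA10 took in both other genes, while PCDHGC3 stayed below PCDHGB1 in each library. Behind them came PCDHGB4 with 327 and 312 reads (3.40 ± 0.143), PCDHGB2 with 297 and 249 (2.87 ± 0.142), PCDHGA6 with 280 and 246 (2.76 ± 0.0452) and PCDHGA7 with 240 and 254 (2.61 ± 0.300). Gamma A and gamma B genes, whose variable exons alternate along the cluster, were both spread over this range, with median levels of 1.76 and 2.29. Near the other end, PCDHGA2 had 7 and 10 reads and PCDHGA3 had 4 and 7. Both lie directly between PCDHGA1, with 228 and 181 reads, and PCDHGB1, the highest gene of the cluster. PCDHB8 stood 201 times above PCDHGA3 in mean level, 311 times in replicate 1 and 145 times in replicate 2, a ratio that rests on the few reads of PCDHGA3.

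In the alpha cluster the reads came mainly from its upstream end. PCDHA3 had 493 and 380 reads, at 4.81 and 4.13 (4.47 ± 0.486). PCDHA4 had 484 and 384 reads, at 4.66 and 4.11 (4.39 ± 0.388), and PCDHA1 had 452 and 378 reads, at 4.25 and 3.95 (4.10 ± 0.210). The levels of these 3 genes overlapped. PCDHA1 to PCDHA5, the first 5 genes of the cluster, lay between 1.02 and 4.47 and held 74.8% and 75.6% of the alpha reads in replicates 1 and 2. The other 10 lay between 0.220 and 1.49, with a median of 0.383 against 4.10 in the first 5. Within the first 5, PCDHA2 was the lowest with 153 and 104 reads (1.02 ± 0.201), and among the others PCDHA11 stood apart with 156 and 125 reads (1.49 ± 0.121). PCDHA13, the last gene before the C-type genes, had 27 and 19 reads. That division was made after the levels were seen. Spearman's rho of level with place along the cluster was -0.786 over the 15 alpha genes, against 0.300 over the 15 beta genes and -0.0597 over the 21 gamma genes. The genes of a cluster share both libraries and neighbouring genes share sequence, so these values are a description.

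**Figure D3:**
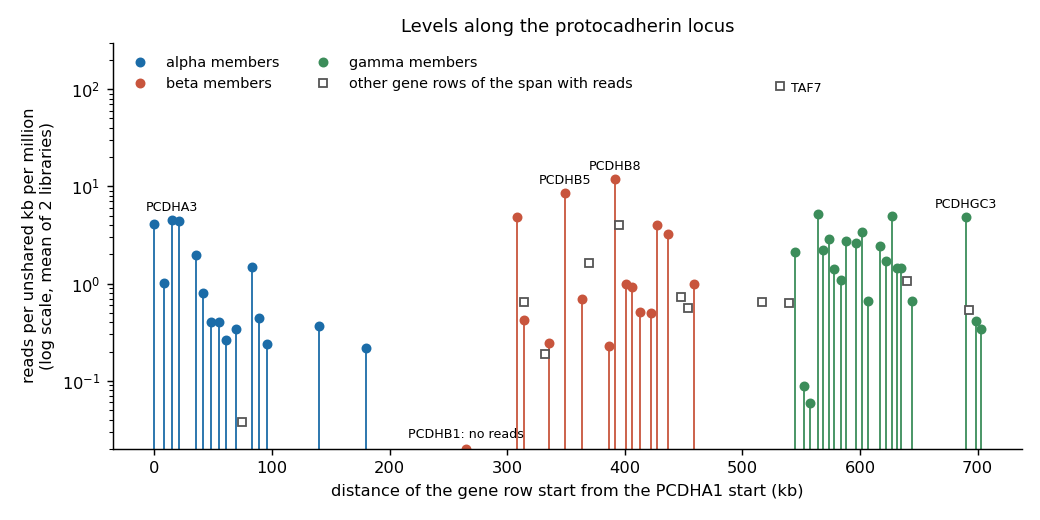
Mean level (log scale) of the members and of the other gene rows with reads inside the span, against the distance in kb of each row's start from the PCDHA1 start. Alpha levels are highest at the left end of the cluster, PCDHB1 has no reads and is drawn at the bottom edge, and TAF7, between the beta and gamma clusters, stands at 107.

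The C-type genes did not behave as 1 group. PCDHGC3, whose protein in mice restrains Wnt signalling through AXIN1 and shapes dendrites, was the sixth highest member. PCDHAC1 had 57 and 32 reads and a level of 0.363 ± 0.119. PCDHAC2, needed in mice for the spacing of serotonin axons, had 22 and 31 reads and 0.220 ± 0.0687. PCDHGC4, needed in mice for the survival of interneurons, had 43 and 36 reads and 0.411 ± 0.0207, and PCDHGC5 had 42 and 25 reads and 0.343 ± 0.0986. The lower library of PCDHGC3, at 4.77, lay far above the highest library of any other C-type gene, PCDHAC1 in replicate 1 at 0.447. None of the 5 genes held 50-base words of another gene's transcripts.

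Levels and promoter letters can be set side by side for the 45 genes with a window. Members with any of the 3 forms had a median level of 1.60 and ran from 0.0588 to 11.8, so the form was present in the highest and in the lowest members with reads. The 7 members without a form had a median of 0.363 and ran from 0 to 1.45. The most alike alpha stretches, of PCDHA6 and PCDHA8, had 90.6% equal letters, and these genes had levels of 0.809 and 0.402. In gamma, 6 pairs tied as most alike at 87.5%, and PCDHGA2 and PCDHGA6, 1 of these pairs, had levels of 0.0886 and 2.76. PCDHB8 and PCDHB13, whose stretches differed by the single letter given above, had levels of 11.8 and 3.96. No test was made, since the forms were read from the same promoters.

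The order of the members was much the same in both libraries. The same 10 genes were the highest 10 in replicate 1 and in replicate 2, and Spearman's rho between the libraries over the 51 members was 0.966. Among the 50 pairs of neighbours in the order of mean level, the values of the 2 libraries overlapped in 40. The 10 steps that the spread did not bridge included PCDHB8 above PCDHB5, PCDHB5 above PCDHGB1, PCDHB13 above PCDHGB4, PCDHAC2 above PCDHGA2 and PCDHGA3 above PCDHB1.

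Summed over each cluster and divided by its unshared length, gamma reads stood at 0.854 times the beta reads in replicate 1 (exact 95% interval 0.819 to 0.890) and at 0.887 times in replicate 2 (0.849 to 0.927). Without PCDHGB1 and PCDHB8, the highest gene of each cluster, the ratio was 1.06, so the direction depended on those genes. Over the deposited exon length it was 0.466. Over alpha, gamma reads were 1.49 times (1.42 to 1.57) and 1.75 times (1.65 to 1.85) as high, and beta reads 1.75 times (1.66 to 1.84) and 1.97 times (1.86 to 2.08). The intervals of the 2 libraries did not overlap in either ratio over alpha. Alpha genes took 0.00590% of the reads on genes in replicate 1 and 0.00500% in replicate 2, with intervals of 0.00567% to 0.00614% and 0.00477% to 0.00523%.

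Replicate 1 was compared with replicate 2 gene by gene to find which of these differences exceed counting error. An exact two-sided binomial test was run over all 23006 genes with at least 10 reads, with Benjamini-Hochberg adjustment. At an adjusted p of 0.05, 9 of 50 tested members differed against 28.5% of all tested genes. Among the 16483 genes in the members' own range of 11 to 2524 reads, a set chosen after the values were seen, 20.2% differed. The members exceeded neither share. The calls were 6 of 14 beta genes (42.9%), 2 of 21 gamma genes (9.52%) and 1 of 15 alpha genes (6.67%). Beta genes thus stood above both shares, and gamma and alpha genes below both. Such p-values set 2 libraries against counting error, and the difference between them may be technical.

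PCDHB3 and PCDHB6 differed most. PCDHB3 had 78 reads in replicate 1 and 25 in replicate 2, a log2 ratio of 1.47 (adjusted exact p = 4.0e-05). An antisense row overlaps PCDHB3 and the reads were counted without strand; it had 5 and 15 reads. PCDHB6 had 134 and 46 reads, a log2 ratio of 1.37 (adjusted exact p = 1.1e-07). These 2 genes lie apart, with PCDHB4 and PCDHB5 between them, and PCDHB5, at a log2 ratio of -0.07, was not called. The 3 other such genes were also higher in replicate 1. PCDHA5 had 244 and 160 reads (log2 ratio 0.43, adjusted exact p = 0.015), PCDHGA10 differed by 0.40 (adjusted exact p = 0.00019) and PCDHB13 by 0.28 (adjusted exact p = 0.0094).

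Lower in replicate 1 were 4 genes. PCDHB7 had 24 and 42 reads (log2 ratio -0.98, adjusted exact p = 0.036), and PCDHB9 had 136 and 188 (-0.64, adjusted exact p = 0.00071). PCDHGA9 had 207 and 254 reads (-0.47, adjusted exact p = 0.0037). PCDHB10 had 104 and 129 reads (-0.48, adjusted exact p = 0.045), and it was not called when the libraries were scaled by DESeq2's size factors or by total reads, or with no filter on reads. PCDHB9 and PCDHB10 are neighbours that share 50-base words: 17.9% of those of PCDHB9 stood in PCDHB10. Of the 15 alpha genes, 13 had a log2 ratio above 0, against 7063 of 13972 tested protein-coding genes, and the alpha median was 0.33 against 0.00. PCDHA5 was the only one of them called.

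**Figure D4:**
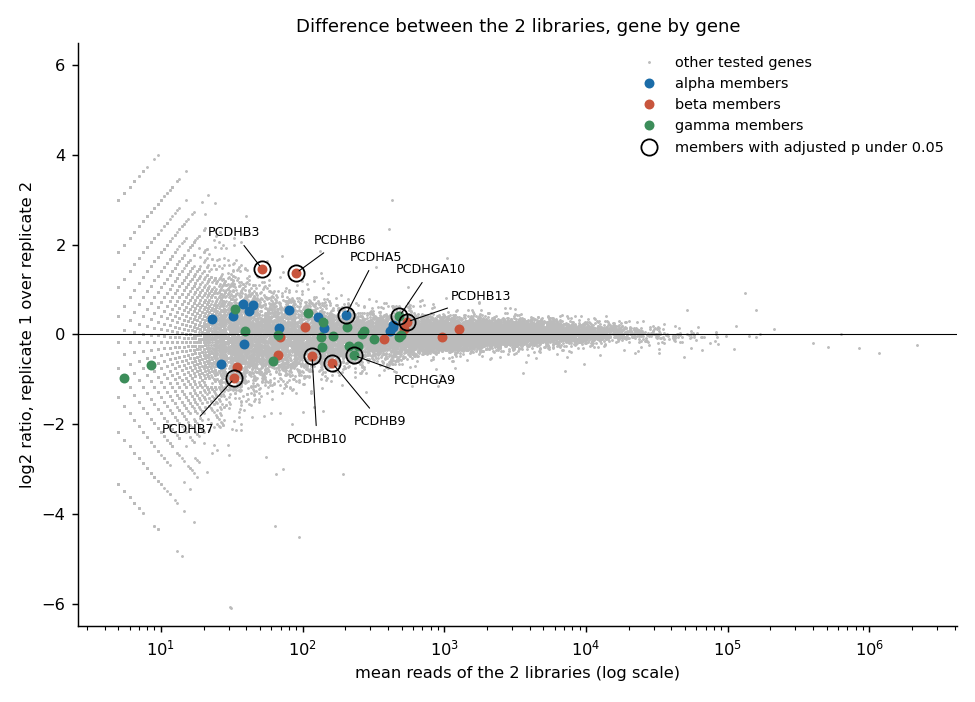
Log2 ratio of replicate 1 over replicate 2, scaled by effective library size, against the mean reads of both libraries (log scale), for tested genes with reads in both. Members are coloured by cluster and the 9 with an adjusted p under 0.05 are ringed and named; PCDHB3 and PCDHB6 stand highest, at 1.47 and 1.37.

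Inside the span lay 14 further rows. TAF7, a subunit of the general transcription factor TFIID on the minus strand between the beta and gamma clusters, had 7761 and 6797 reads and a level of 107 ± 2.00, above every member. The row ENSG00000196963, from 140560980 to 140565793 on the plus strand between PCDHB8 and PCDHB9, is unnamed by the references used. It had 818 and 690 reads and a level of 3.98 ± 0.180, above that of PCDHB13, the member of rank 10, at 3.96. Whether this row is a beta gene under an older ID was not checked, and the member counts and medians leave it out. The 4 transcribed protocadherin pseudogenes named here each had at least 100 reads in the libraries together. PCDHB17P, between PCDHB6 and PCDHB7, had 227 and 164 reads (1.62 ± 0.249), a level above that of both flanking genes. PCDHGB8P had 103 and 94, PCDHB18P 82 and 98, and PCDHB19P 50 and 52. The long non-coding row ENSG00000272070 before PCDHGA1 had 78 and 77 reads. SLC25A2, a mitochondrial ornithine carrier gene on the minus strand between the clusters, had 42 and 30.

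In the wider family, of 20 non-clustered protocadherins and large cadherins with a row, 6 were detected, with a median level of 0.0248. These 20 genes took 0.0344% and 0.0371% of the reads on genes in replicates 1 and 2, against 0.0278% and 0.0263% for the 51 clustered members. They also had 221712 unshared exon bases against 142417 in the members, so these shares do not compare levels. Of the 20 genes, 4 had no reads in either library. CELSR1, a cadherin of planar cell polarity, was highest at 15.1 ± 1.31, above every clustered member, followed by PCDH1 at 8.02 ± 0.0343 and CELSR2 at 4.60 ± 0.370. The 4 without reads were PCDH8, PCDH9, PCDH10 and PCDH17. PCDH20 was not matched.

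Most known regulators of the clusters were well read. Of 24 such genes, 23 were detected, or 95.8%, against 60.9% of all protein-coding genes. Their median level was 13.5. The lowest of them with reads, DNMT3A at 1.30 and TET1 at 1.68, stood below the median of 1.93 over all protein-coding genes. RAD21, a cohesin subunit, stood at 68.4, TRIM28, a corepressor that acts with SETDB1, at 59.5, and WAPL, which releases cohesin from DNA, at 35.5. CTCF had a level of 21.9 ± 2.65. EHMT2, a histone H3 lysine 9 methyltransferase, is listed at 0 reads in both libraries. Reads that fit several places were not counted, so this 0 does not show that the gene is silent, and its origin was not tested. All 14 measured partners of the proteins were detected, against the same 60.9%, with a median of 10.5. The highest were CTNNB1 (beta-catenin) at 90.4, BRK1, a subunit of the WAVE complex that protocadherin tails bind, at 80.9, and PDCD10, which binds protocadherin tails, at 30.2 and 27.8 in replicates 1 and 2. CYFIP1 was not matched.

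**Figure D5:**
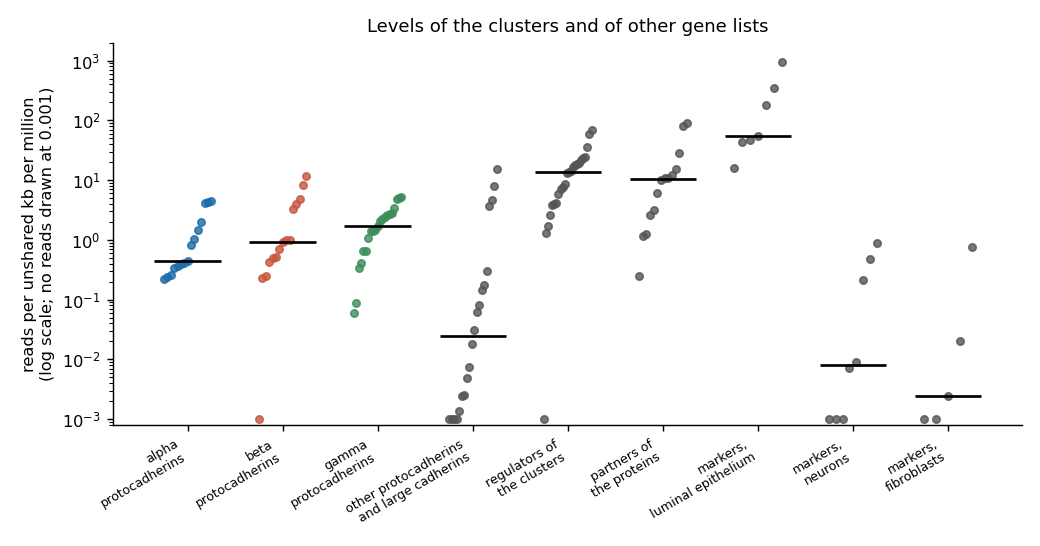
Mean level of each gene (log scale, genes without reads drawn at 0.001) in the alpha, beta and gamma clusters and in the lists of related genes and cell type markers; horizontal lines are medians. Cluster medians of 0.447, 0.914 and 1.72 lie above the wider protocadherin family at 0.0248 and below the regulators at 13.5 and the partners at 10.5.

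KRT19, KRT8 and KRT18, the highest of the luminal markers, had levels of 937, 348 and 178. The neuron markers, given because these genes are best known from neurons, had 2 of 8 members detected. MAP2, a microtubule protein, stood at 0.887 and TUBB3, a beta-tubulin, at 0.475. SYP, a synaptic vesicle protein, came next at 0.213 and was under 1 CPM in replicate 2. Together the 8 markers took 0.00144% and 0.00129% of the reads, against 0.0278% and 0.0263% for the clustered protocadherins. The markers had 46057 unshared exon bases and the protocadherins 142417. Of the fibroblast markers, COL1A1 alone was detected, at 0.752. VIM had 3 reads in each library, and COL1A2 had 0 and 2.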

How the data were processed

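RNA from 2 replicate libraries of 1 group was analysed, and the group and replicate numbers were taken from the library names in the sample descriptions. The deposited values are whole-number counts per gene, made with featureCounts 2.0.2 on GENCODE 19 exons, per the file headers. The recorded command set no option for strand, pairs, overlapping features or multimapping. HISAT2 and hg19 (GRCh37) are named in the submitters' processing notes, without an aligner version. Columns were tied to samples by the line, the mutated residue and the replicate in their names, which give no siRNA, and another 8 columns of values were not used. Reads of antisense pairs cannot be told apart without strand.

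Member names and gene types came from GENCODE 29 by Ensembl ID. Exon bases covered by 1 row only were counted from the exon coordinates deposited with the counts. Levels divide reads by that length (at least 200 bases) and by all reads on genes. Detection means 1 CPM or more in both libraries. The libraries were compared by an exact binomial test, with the null share taken from TMM effective sizes (edgeR 4.0.16), adjusted over all genes with at least 10 reads. The test was run on simulated counts with counting error alone (Poisson). That check cannot show how the test behaves where libraries differ by more than counting error. The size factors of DESeq2 1.42.0 were an alternative. Computations used Python 3.11.15, scipy 1.17.1, pandas 2.3.3 and R 4.3.3. Similarity was searched in 50-base words of GENCODE 29 transcripts. Promoter windows are from RefSeq.

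Named members are the 10 highest, the highest of each cluster, the C-type genes, PCDHB1 and those called between replicates; other rows of the span with at least 100 reads, and the 3 highest and the unread genes of each list, are also named. The remaining names were chosen after their values were seen. The members and lists were chosen with earlier results of these data known.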

Additional observations from a re-analysis of the deposited data

How the results depend on the processing

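With 2 libraries of 1 group, no condition could be compared, and the spread between libraries rests on 2 values per gene. The count of members detected stayed within 1.5 times of 36, from 36 with TMM effective sizes to 49 with at least 0.1 CPM, and was 39 and 42 without each replicate in turn. The median level of members was 1.06 to 1.16 without each replicate in turn, 1.25 per 1000000 reads on protein-coding genes, and 0.744 over the deposited exon length, which adds the shared exons that hold no counted reads. The gamma to beta ratio was 0.871, and 0.854 to 0.887 without each replicate in turn. Over the deposited length it fell to 0.466, and without the highest member of each cluster it reversed to 1.06. Members differing between replicates numbered 8 with DESeq2 size factors, 9 with total reads, 8 with no filter and 9 with at least 50 reads, against 9; PCDHB10 was lost in the first 3 and PCDHB8 gained with total reads. Of 22 named members, 12 moved by more than the spread between libraries over the deposited length, all in alpha or gamma, and 9 of the 10 highest stayed among the 10 highest, with PCDHB14 in place of PCDHA1. No paired analysis was possible because the design holds 1 group.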
